A study of Mus musculus with 24 samples.

Results

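The 42 genes described here form the hypoxia response and glycolysis module: the genes that sense oxygen and build the hypoxia-inducible factor HIF, the transporters and enzymes that take glucose to lactate, and other known HIF targets. They were chosen by name for these functions and found by their Ensembl identifiers, 42 of the 55471 genes in the table of batch 1 and 40 of the 13915 in the table of batch 2. Ero1l is listed in batch 2 under its newer symbol Ero1a, and Epas1 and Ldhb were not analysed here in batch 2. The cells are 4 derivatives of EO771, a mouse mammary carcinoma line from a C57BL/6 tumour, all made by retroviral transduction and grown in RPMI-1640 medium with serum. X2 cells are the vector control. CCR7 cells received mouse Ccr7 with the fluorescent reporter tdTomato, which the study also shows in X2 cells. The CCR7 cells are the population negative for surface podoplanin (PDPN). CCR7-PDPN cells are the population sorted for PDPN from the same transduced cells, and X2-PDPN cells were sorted from X2 for PDPN that had arisen spontaneously. Each derivative is 1 sorted population without clonal selection, no label names a low-oxygen treatment, and each set of 4 libraries holds technical replicates. Every p-value therefore measures the spread between libraries of 1 population only. Batch 1 held X2, CCR7 and CCR7-PDPN cells and batch 2 held X2, X2-PDPN and CCR7-PDPN cells, 24 libraries in all.

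When oxygen is present, the prolyl hydroxylases encoded by the Egln genes mark the HIF alpha subunits, the Vhl ubiquitin ligase recognises the mark, and the protein is destroyed. When oxygen falls, the alpha subunit persists, pairs with the Arnt subunit and binds short DNA elements near its targets, among them most glycolytic genes. HIF activity is set largely at the level of protein, which RNA does not measure. Many tumour cells ferment glucose to lactate even in the presence of oxygen, and several glycolytic steps are shared by isozymes with different regulation.

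Libraries held 22275468 to 33395418 counts in batch 1 and 22788542 to 35721027 in batch 2, and replicates differed by more than counting noise in all 36 pairs (chi-square per degree of freedom 2.073 to 22.522). Levels are given in TPM, the standard scale of a share of all transcripts after division of counts by exonic length, and gene coordinates are those of GRCm38. Ccr7 lay at 5134 to 6325 TPM in CCR7 and CCR7-PDPN libraries and at most 1.81 TPM elsewhere, and Pdpn at 47.4 to 54.8 TPM in the PDPN-sorted populations and at most 1.27 TPM in X2 and CCR7. Of the mammary carcinoma markers, Krt8 and Vim were abundant, while Krt18, Epcam and Cdh1 had at most 9, 2 and 7 counts in a batch 1 library. Of the leukocyte markers, Ptprc, Cd3e and Adgre1 had at most 4, 0 and 2 counts, and the summed level of the list, mostly Cd68, in batch 1 was 134 to 158 TPM (X2), 48.3 to 64.2 TPM (CCR7) and 33.0 to 39.2 TPM (CCR7-PDPN). Cd79a of the same list went the other way, with means of 1.27 TPM in X2, 6.05 in CCR7 and 8.34 in CCR7-PDPN of batch 1. The summed level of 5 proliferation genes was 1004 to 1045 TPM in X2-PDPN against 827 to 894 in X2 of batch 2, and that of 5 handling stress genes was 152 to 161 TPM in X2-PDPN and 99.6 to 109 in CCR7-PDPN of batch 2 against 130.3 to 143 in X2. The stress genes did not move together. In X2, X2-PDPN and CCR7-PDPN of batch 2, mean levels were 53.3, 32.0 and 20.1 TPM for Atf3. They were 70.9, 97.2 and 68.0 TPM for Jun and 7.74, 19.8 and 14.6 TPM for Hspa1b. The fibroblast list lay at 95 to 124 TPM in batch 1, nearly all of it Pdgfra and Pdgfrb, and the endothelial list below 1 TPM in every library. The part of these lists in the results was not tested.

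Library by library, CCR7 replicate 1 stood apart in several members. Its Hif1a, Slc2a1, Slc2a3, Hk2, Ndrg1, Ddit4 and Ero1l levels were below those of the other 3 CCR7 libraries and its Pfkl, Pfkp, Aldoa, Tpi1, Pkm and Ldha levels above them. Of 18 enzymes, 15 were above their CCR7 group mean in this library, with a median log2 deviation of 0.07, against 2 to 14 enzymes and medians of -0.05 to 0.04 elsewhere.

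In X2 cells of batch 1 the module was abundant: 37 of the 42 members lay at or above 10 TPM and 19 at or above 100 TPM. The highest were Gapdh at 1946 ± 34.2 TPM (SD, n = 4), Ldha at 1428 ± 36.0, Aldoa at 1304 ± 19.3, Pkm at 1156 ± 11.2 and Tpi1 at 979 ± 30.2, in an order without overlap between the libraries of neighbours. Gapdh ranked 43 among the 13915 genes. Eno1 with 640.3 to 658 TPM stood clear of Pgk1 with 572 to 604, whereas neighbours further down, such as Gpi1 (310.4 to 315) and Hif1a (298 to 315) or Ddit4 (214 to 236) and Slc16a3 (219 to 227), overlapped. At the other end, Aldoc, Ldhb and Epas1 lay below 1 TPM. Several abundant glycolytic genes have processed pseudogenes of near-identical sequence in the mouse genome, so their levels are uncertain to the extent that reads were shared with such copies.

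Within batches 6 comparisons were made, and 40 members could be tested in each. Differences are log2 fold changes from edgeR's quasi-likelihood test, and a member was counted as higher or lower at a Benjamini-Hochberg adjusted p under 0.05 over all genes tested. A change in the share of expressing cells and a change in RNA per cell cannot be told apart in these bulk populations. Between CCR7-PDPN and CCR7 cells, 17 members (42.5%) were higher and 7 (17.5%) lower, against 20.9% and 20.7% of the 13261 genes tested. From X2 to CCR7 cells, 13 (32.5%) rose and 6 (15%) fell, against 24% and 25.2%. CCR7-PDPN against X2 gave 18 higher (45%) and 8 lower (20%) in batch 1, against 30.3% and 30.6%. In batch 2 the same comparison gave 20 higher (50%) and 10 lower (25%), against 32% and 32.8% of 13314 genes. X2-PDPN against X2 gave 16 higher (40%) and 14 lower (35%), against 28.2% and 28.5%. CCR7-PDPN against X2-PDPN gave 19 higher (47.5%) and 14 lower (35%), against 31.2% and 32%. The counts of members higher in CCR7-PDPN include Aldoc, which passed the filter on low counts through CCR7-PDPN alone. All genes tested were not matched to the members for level, on which the smallest difference that can be called depends. In X2 of batch 1, 37 of the 42 members lay at or above 10 TPM. The part of level in these shares was not tested.

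Most of these differences were small. The median log2 fold change over the members tested was 0.07 for CCR7-PDPN against X2-PDPN, 0.02 for X2-PDPN against X2, 0.06 for CCR7-PDPN against CCR7, 0.04 for CCR7 against X2, and 0.05 and 0.06 for the 2 batches of CCR7-PDPN against X2. Over all genes tested it was 0.00 in each comparison. The smallest difference called was 0.07. Aldoc was at the floor in X2, and without it the medians in the comparisons with X2 were 0.02 to 0.06. Past an absolute log2 fold change of 1, the limit used by the study, were 2 members (5%) in CCR7-PDPN against CCR7, where 3.27% of all genes were past it. The count was 1 (2.5%) in CCR7 against X2 (all genes 6.48%) and 4 (10%) in CCR7-PDPN against X2 of batch 1 (9.45%) and of batch 2 (9.63%). It was 2 (5%) both in X2-PDPN against X2 (5.05%) and in CCR7-PDPN against X2-PDPN (9.16%). The members past the limit were Aldoc, Eno2, Car9 and Car12, and Aldoc was kept by the filter on low counts through CCR7-PDPN alone. Eno1, Pgk1 and Slc16a3 were called in no comparison. In CCR7-PDPN against X2, the comparison made with separate libraries in both batches, 25 of 40 members were called in both in the same direction, 0 in opposite directions and 9 in neither, and the median absolute difference between the batches was 0.03. Of all genes, 30.3% were higher and 30.6% lower in batch 1, and 32% and 32.8% in batch 2. The share of all genes called in both was not counted, so these counts are no result about the members. Without CCR7 replicate 1, CCR7-PDPN against CCR7 had 18 members higher and 8 lower, CCR7 against X2 had 16 higher and 8 lower, and 2 and 1 were past the fold limit. The shares of all genes called without this library were not counted, so the change in counts is no result about the members.

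**Figure D1:**
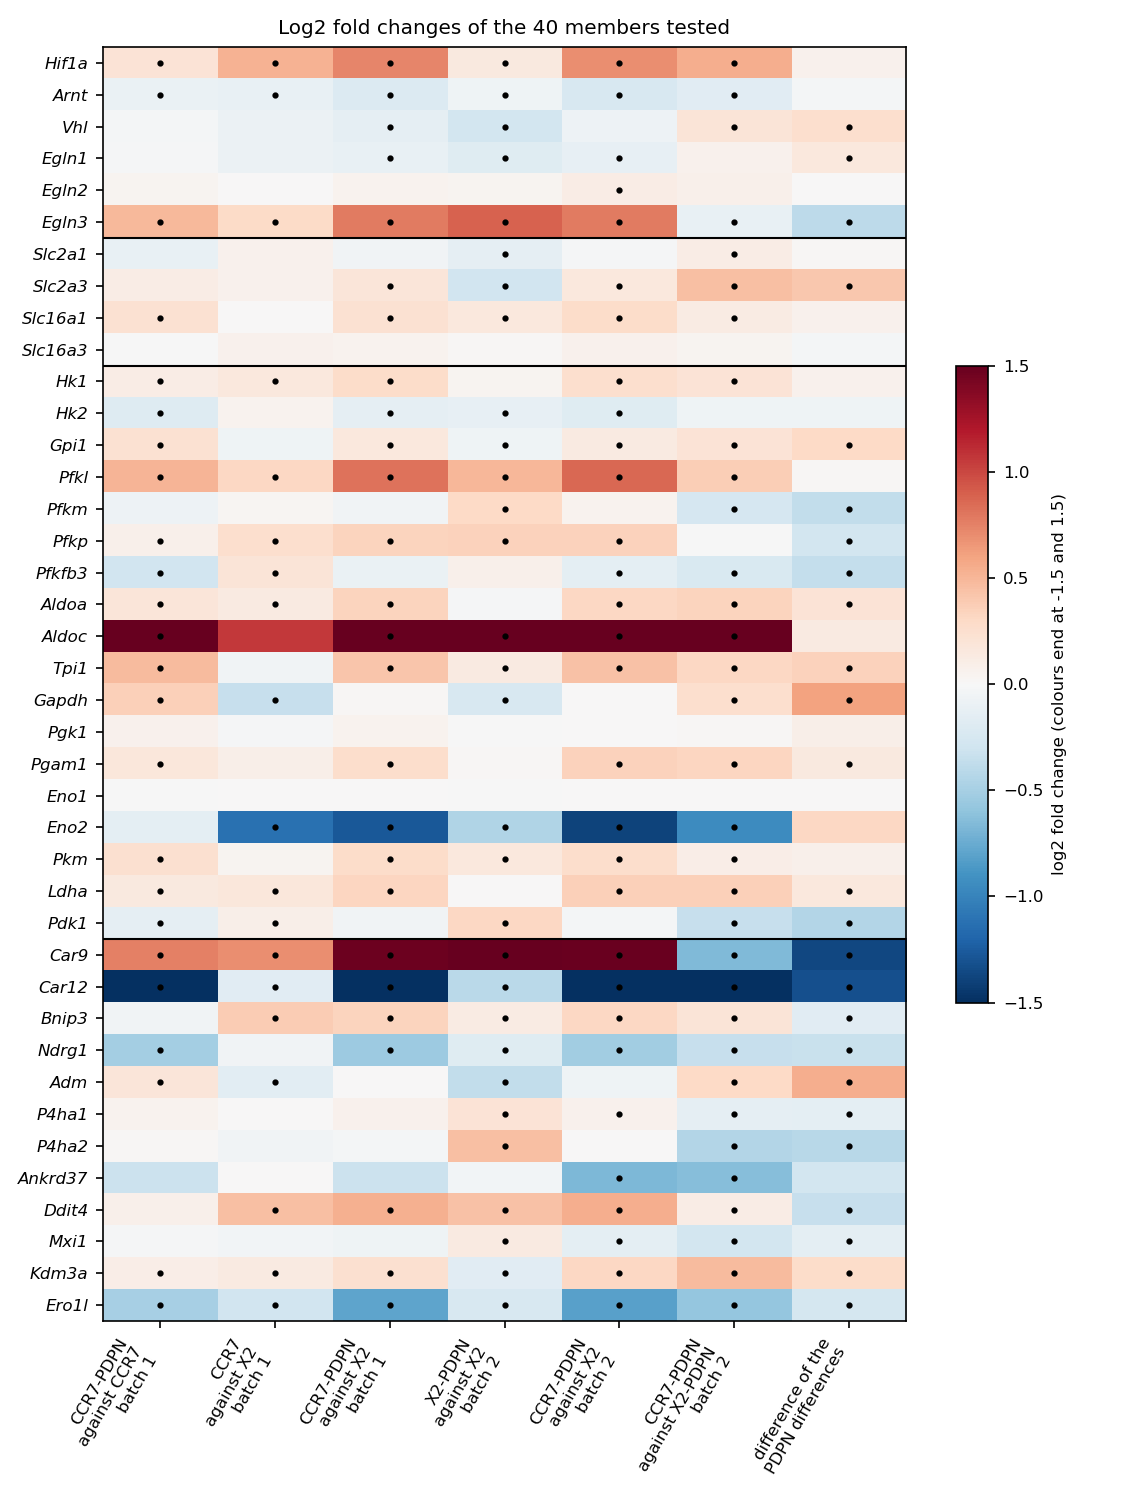
Log2 fold changes of the 40 members tested, rows grouped as HIF control, transport, glycolytic enzymes and other HIF targets, columns the 6 within-batch comparisons and, at the right, the difference between the PDPN differences with and without CCR7. Black points mark an adjusted p under 0.05, and the strongest colours belong to Aldoc, Eno2, Car9 and Car12, whereas Eno1, Pgk1 and Slc16a3 hold no point.

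HIF binds a core of A or G followed by CGTG. The RefSeq promoters of 39 members (GRCm38.p6) were searched over the 250 bases before the start site for ACGTG and GCGTG on both strands, ACGTG overlapping its own reverse complement in CACGTG. Of these, 30 (76.9%) held at least 1 core, 20 (51.3%) ACGTG and 21 (53.8%) GCGTG, against 38.6%, 16.6% and 28.2% of all 32851 mouse promoters of the same length. Many members were chosen as known HIF targets, and the promoters were not matched for base composition or expression. The higher shares are therefore no finding of these data. The promoters of the 4 members past the fold limit are shown from 5′ to 3′, since they include both members that rose and members that fell, with each core in capitals.
Aldoc (chr11:78322823-78323072, plus strand): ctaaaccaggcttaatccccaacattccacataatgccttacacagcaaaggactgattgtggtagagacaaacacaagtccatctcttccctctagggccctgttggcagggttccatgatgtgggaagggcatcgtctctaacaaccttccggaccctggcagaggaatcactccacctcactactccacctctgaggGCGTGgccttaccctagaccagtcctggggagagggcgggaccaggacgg
Car9 (chr4:43506776-43507025, plus strand): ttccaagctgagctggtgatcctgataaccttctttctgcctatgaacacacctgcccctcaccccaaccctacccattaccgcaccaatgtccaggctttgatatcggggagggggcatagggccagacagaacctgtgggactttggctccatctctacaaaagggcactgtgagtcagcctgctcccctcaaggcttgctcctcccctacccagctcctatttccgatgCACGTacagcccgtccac
Eno2 (chr6:124769674-124769923, minus strand): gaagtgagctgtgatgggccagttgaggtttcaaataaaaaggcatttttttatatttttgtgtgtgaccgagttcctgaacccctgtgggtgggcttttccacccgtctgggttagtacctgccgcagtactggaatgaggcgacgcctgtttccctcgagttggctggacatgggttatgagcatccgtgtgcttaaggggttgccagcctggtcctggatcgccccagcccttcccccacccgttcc
Car12 (chr9:66713436-66713685, plus strand): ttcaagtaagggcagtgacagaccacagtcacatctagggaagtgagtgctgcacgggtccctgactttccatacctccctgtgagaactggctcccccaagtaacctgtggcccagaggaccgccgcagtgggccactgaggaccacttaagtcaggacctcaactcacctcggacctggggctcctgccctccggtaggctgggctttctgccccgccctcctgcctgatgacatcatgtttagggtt
Aldoc holds 1 GCGTG core that starts 50 bases before the start site, and Car9 holds 1 ACGTG core, read on the other strand as CACGT, 18 bases before it. Neither core is present in these windows of Eno2 and Car12. The matches are letters in a window and not binding sites.

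Among the HIF control genes, Hif1a and Egln3 had the largest differences in CCR7-PDPN against X2, in both batches. Hif1a (ENSMUSG00000021109, chromosome 12, 73901375 to 73947530), which encodes the oxygen-regulated alpha subunit, stood at 303, 314, 298 and 315 TPM in the 4 X2 libraries of batch 1, at 387, 473, 455 and 457 in CCR7 and at 507, 491, 495 and 513 in CCR7-PDPN. In batch 2 it had 308, 303, 322 and 308 TPM in X2, 354, 329.7, 342 and 351 in X2-PDPN and 491, 484, 504 and 507 in CCR7-PDPN. The groups did not overlap within either batch, and CCR7 replicate 1 lay below the other CCR7 libraries. The log2 fold change of CCR7-PDPN against X2 was 0.73 ± 0.05 (SE, adjusted p = 3.5e-10) in batch 1 and 0.70 ± 0.03 (SE, adjusted p = 3.1e-26) in batch 2. It was 0.52 ± 0.05 (SE, adjusted p = 4.2e-08) for CCR7 against X2 and 0.21 ± 0.05 (SE, adjusted p = 0.0016) for CCR7-PDPN against CCR7, and in X2-PDPN it was 0.15 ± 0.03 (SE, adjusted p = 9.2e-06). Epas1, the alternative alpha subunit, had 0, 0, 5 and 1 counts in X2, 5, 1, 1 and 0 in CCR7 and 0, 0, 1 and 0 in CCR7-PDPN of batch 1. With 0 to 5 counts per library it was too low to test, and Hif1a made up at least 99.9% of their summed mean level in each group.

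Egln3 (ENSMUSG00000035105, chromosome 12, 54178981 to 54203860), a prolyl hydroxylase that is itself a HIF target, had 151, 147, 149 and 151 TPM in X2, 181, 184, 185 and 183 in CCR7 and 248, 253, 248 and 263 in CCR7-PDPN of batch 1. Its batch 2 values were 155, 151, 155 and 155 TPM in X2, 282, 292, 278 and 292 in X2-PDPN and 254, 254, 263 and 273 in CCR7-PDPN. X2 was lowest in both batches without overlap and X2-PDPN was highest. The difference was 0.78 ± 0.03 (SE, adjusted p = 4.8e-15) and 0.78 ± 0.03 (SE, adjusted p = 4.5e-26) for CCR7-PDPN against X2 in batches 1 and 2. It was 0.89 ± 0.03 (SE, adjusted p = 1.5e-27) for X2-PDPN against X2, 0.29 ± 0.03 (SE, adjusted p = 1e-07) for CCR7 against X2, and 0.49 ± 0.03 (SE, adjusted p = 9.8e-11) for CCR7-PDPN against CCR7. Egln3 thereby went from 47.9% ± 0.622 (SD, n = 4) of the summed level of the 3 hydroxylases in X2 to 53.7% ± 0.792 in CCR7. The share was 61.9% ± 1.36 in batch 1 libraries of CCR7-PDPN and 65.2% ± 0.683 in X2-PDPN.

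The remaining control genes stayed within narrow ranges. Arnt, the constant partner subunit, had 59.7, 57.8, 59.5 and 57.1 TPM in X2, 51.6, 54.6, 55.4 and 55.5 in CCR7 and 49.3, 48.9, 49.0 and 52.0 in CCR7-PDPN of batch 1. In batch 2 Arnt had 58.9, 59.5, 61.8 and 58.5 TPM in X2, 56.9, 55.6, 59.5 and 57.1 in X2-PDPN and 48.9, 49.5, 51.8 and 49.5 in CCR7-PDPN of batch 2. Its lowest levels were in CCR7-PDPN, where the log2 fold change against X2 was -0.21 ± 0.03 (SE, adjusted p = 2.1e-05) in batch 1 and -0.24 ± 0.03 (SE, adjusted p = 1e-09) in batch 2. The difference of -0.10 to CCR7 lost its call when any of CCR7-PDPN replicates 1 to 3 or CCR7 replicates 2 to 4 was left out (each -0.09, adjusted p up to 0.087). That of -0.07 in X2-PDPN did so without X2-PDPN replicate 1, 2 or 4 or X2 replicate 2 or 3 (-0.07 to -0.06, adjusted p up to 0.12). Vhl, the substrate receptor of the ubiquitin ligase, had 43.1, 45.8, 43.3 and 44.7 TPM in X2, 37.9, 42.6, 45.0 and 40.3 in CCR7 and 41.1, 39.5, 39.4 and 39.3 in CCR7-PDPN of batch 1. In batch 2 Vhl had 43.3, 46.3, 45.5 and 47.4 TPM in X2, 38.8, 37.9, 35.6 and 39.0 in X2-PDPN and 41.1, 41.0, 43.2 and 44.4 in CCR7-PDPN of batch 2. X2-PDPN was lowest and did not overlap the other 2 groups of batch 2, at -0.28 ± 0.04 (SE, adjusted p = 7.5e-07) against X2.

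Egln1, the main oxygen sensor among the hydroxylases, had 100.5, 88.4, 95.5 and 96.6 TPM in X2, 93.3, 90.0, 89.3 and 86.6 in CCR7 and 88.1, 93.3, 81.3 and 84.4 in CCR7-PDPN of batch 1. In batch 2 Egln1 had 93.5, 97.1, 100.5 and 97.2 TPM in X2, 83.2, 87.6, 86.1 and 87.8 in X2-PDPN and 85.1, 91.9, 89.4 and 86.7 in CCR7-PDPN of batch 2. In batch 2 both sorted populations lay below X2 without overlap, X2-PDPN with a log2 fold change of -0.18 ± 0.03 (SE, adjusted p = 6.6e-06). Egln2, the third hydroxylase, had 68.0, 67.6, 68.9 and 64.6 TPM in X2, 69.2, 69.0, 67.2 and 66.8 in CCR7 and 66.5, 71.3, 72.1 and 64.4 in CCR7-PDPN of batch 1. In batch 2 Egln2 had 59.6, 66, 64.0 and 68.5 TPM in X2, 64.7, 66.7, 69.0 and 65.3 in X2-PDPN and 69.6, 68.1, 70.9 and 67.3 in CCR7-PDPN of batch 2. The Egln2 levels overlapped in every comparison. Its 1 call, 0.11 for CCR7-PDPN against X2 in batch 2, was lost without X2 replicate 1 (0.08, adjusted p = 0.086).

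**Figure D2:**
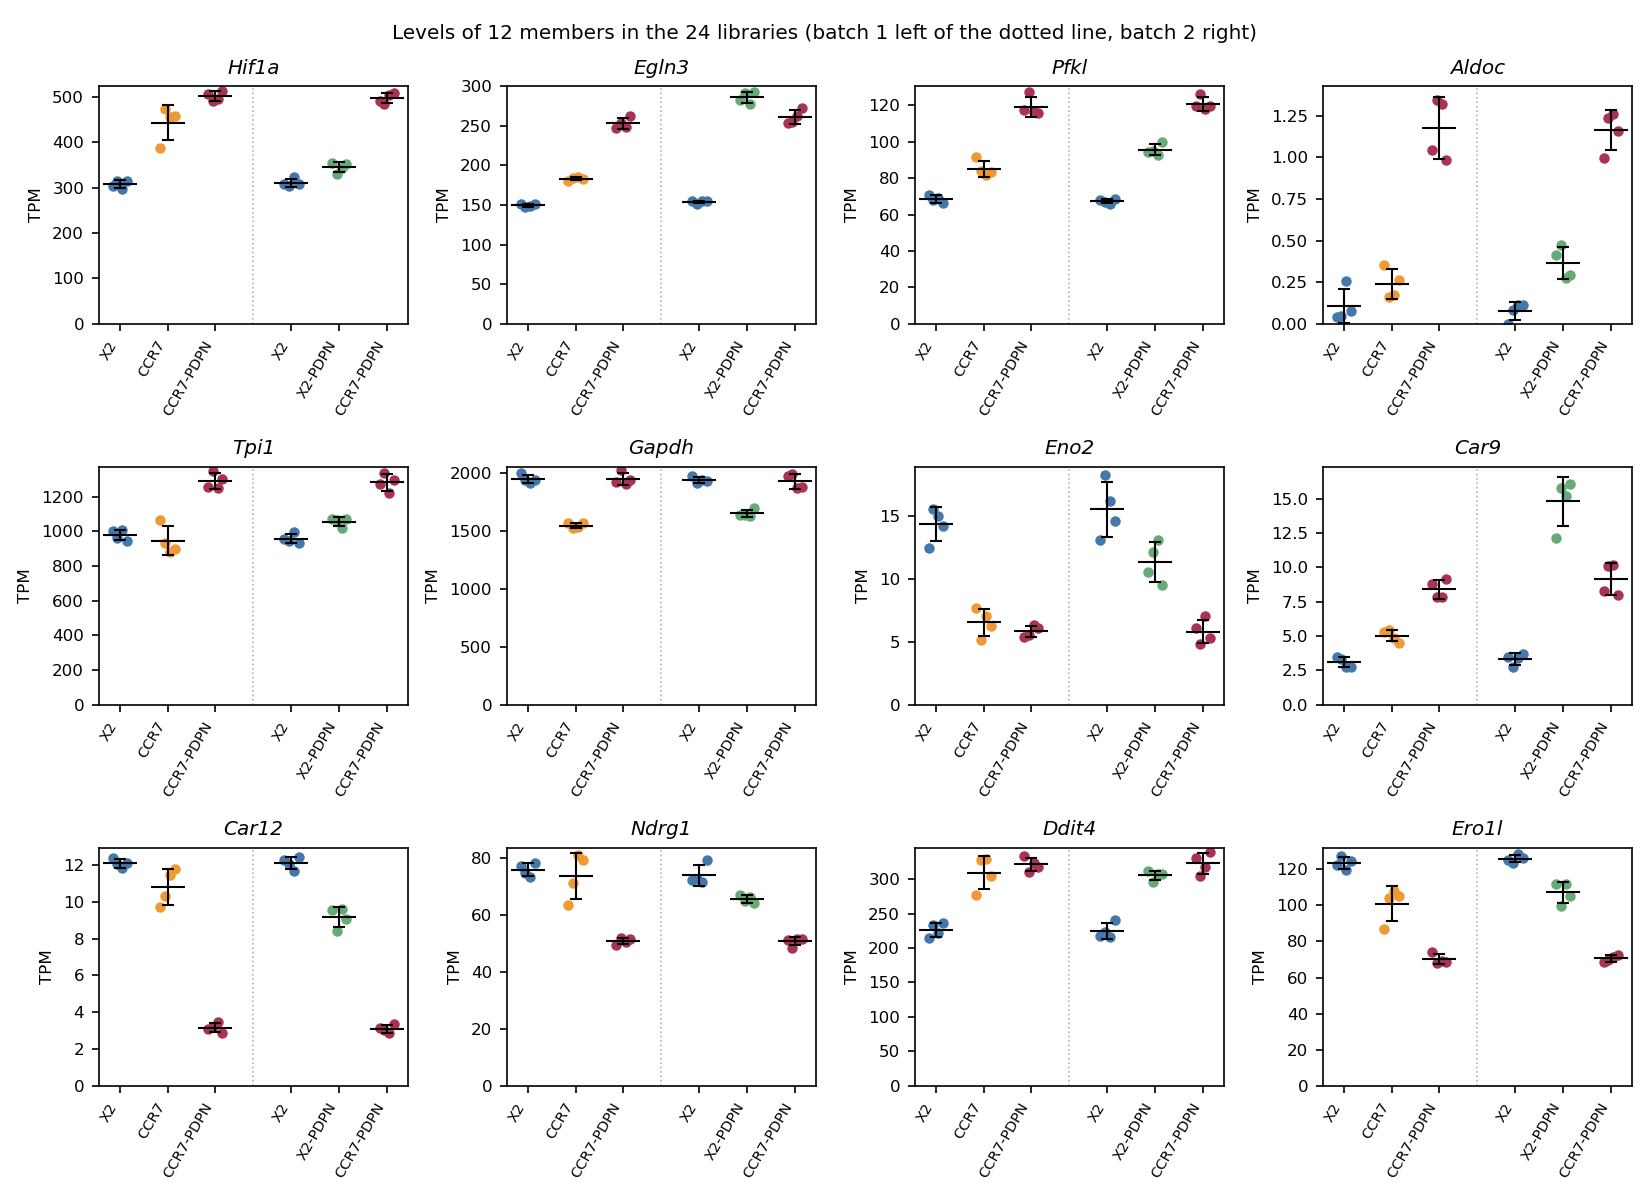
TPM of 12 members in each of the 24 libraries (points) with the mean and SD of the 4 libraries of a group (bars), each panel on its own linear axis from 0. Hif1a, Pfkl and Aldoc were highest in CCR7-PDPN, Egln3 and Car9 in X2-PDPN, and Car12, Ndrg1 and Ero1l were lowest in CCR7-PDPN.

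Glucose and lactate transporters differed by less than 0.5 in all comparisons. Slc2a1, the widely expressed glucose carrier, had 193 ± 4.36 TPM in X2 and 202 ± 20.4 in CCR7 of batch 1, and CCR7 replicate 1 alone lay at 171 TPM against 207 to 214 in the other 3 CCR7 libraries. In batch 2 it was lower in X2-PDPN, -0.13 ± 0.03 (SE, adjusted p = 0.0003). Slc2a3, a carrier with high affinity for glucose, had 30.4 to 31.2 TPM in X2, 23.8 to 26.1 in X2-PDPN and 32.9 to 35.2 in CCR7-PDPN of batch 2. It was lowest in X2-PDPN without overlap, -0.29 ± 0.04 (SE, adjusted p = 2.2e-09). CCR7-PDPN exceeded X2-PDPN by 0.45 ± 0.04 (SE, adjusted p = 4.3e-15). Slc16a1, a transporter of lactate in either direction, rose in CCR7-PDPN from 362 ± 5.65 to 418 ± 19.4 TPM in batch 1 (0.23 ± 0.03 SE, adjusted p = 9.8e-07) and in X2-PDPN by 0.16 ± 0.02 (SE, adjusted p = 4.1e-07). Slc16a3, the exporter of lactate in glycolytic cells, had group means of 218 to 231 TPM and was called in no comparison, the fold changes lying between -0.01 and 0.06.

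Of the 18 glycolytic enzymes tested, Aldoa, Ldha, Pkm, Pfkl, Pfkp, Hk1, Gpi1, Pgam1, Tpi1 and Aldoc were higher in CCR7-PDPN than in X2 in both batches, and Hk2 and Eno2 were lower. The 10 higher are 55.6% of the enzymes, beside 30.3% and 32% of all genes tested in batches 1 and 2, and 1 of them, Aldoc, passed the filter on low counts through CCR7-PDPN alone. Against CCR7, 11 enzymes (61.1%) were higher in CCR7-PDPN and 3 (16.7%) lower, where all genes gave 20.9% and 20.7%. Aldoc is again among those higher and, for the same reason, had to be. In X2-PDPN against X2 the counts were 7 (38.9%) and 4 (22.2%), where all genes gave 28.2% and 28.5%. The median enzyme difference was 0.21 and 0.20 for CCR7-PDPN against X2 in batches 1 and 2, 0.13 against CCR7 and 0.16 against X2-PDPN, beside 0.07 for CCR7 against X2 and 0.03 for X2-PDPN against X2.

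The largest difference among the abundant enzymes was in Pfkl (ENSMUSG00000020277, chromosome 10, 77986947 to 78010083), the liver subunit of phosphofructokinase, which commits sugar to glycolysis. It had 70.9, 68.1, 69.1 and 66.1 TPM in X2, 91.3, 83.8, 81.7 and 83.2 in CCR7 and 117, 127, 116 and 116 in CCR7-PDPN of batch 1. In batch 2 Pfkl had 68.2, 66.8, 66 and 68.3 TPM in X2, 94.3, 95.1, 92.6 and 99.7 in X2-PDPN and 119, 126, 118 and 119.7 in CCR7-PDPN of batch 2. All 3 groups of each batch were apart, X2 lowest and CCR7-PDPN highest. CCR7-PDPN exceeded X2 by 0.82 ± 0.04 (SE, adjusted p = 1.3e-13) and 0.86 ± 0.03 (SE, adjusted p = 1.6e-27) in batches 1 and 2, which is 1.77-fold and 1.82-fold. It exceeded CCR7 by 0.51 ± 0.04 (SE, adjusted p = 1.9e-09), and X2-PDPN exceeded X2 by 0.50 ± 0.03 (SE, adjusted p = 2.6e-18). Pfkp, the platelet subunit, rose in CCR7 (0.25 ± 0.03 SE, adjusted p = 3.3e-07) and in X2-PDPN (0.35 ± 0.03 SE, adjusted p = 1.5e-15). Pfkm, the muscle subunit, rose in X2-PDPN by 0.30 ± 0.03 (SE, adjusted p = 2.5e-10) and did not pass the test in CCR7-PDPN against X2 (-0.05 and 0.05). The share of Pfkl in the summed level of the 3 subunits was 30.4% ± 0.538 in X2, 32.9% ± 0.823 in CCR7 and 41.0% ± 1.12 in CCR7-PDPN, all of batch 1, against 32.7% ± 0.617 in X2-PDPN. That of Pfkm went from 35.0% ± 0.811 in X2 to 25.8% ± 0.450 in CCR7-PDPN. Pfkfb3, which makes the allosteric activator of phosphofructokinase, was lower in CCR7-PDPN than in CCR7 (-0.29 ± 0.06 SE, adjusted p = 0.0006).

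The hexokinases, which trap glucose in the cell, moved apart. Hk1 rose in CCR7-PDPN against X2 by 0.27 ± 0.03 (SE, adjusted p = 5.5e-08) and 0.25 ± 0.03 (SE, adjusted p = 1.5e-10) in batches 1 and 2, whereas those of Hk2, the form induced by hypoxia, were -0.14 ± 0.04 (SE, adjusted p = 0.0075) and -0.18 ± 0.03 (SE, adjusted p = 6.8e-07). The share of Hk1 was 48.7% ± 0.777 in X2, 50.6% ± 2.16 in CCR7, 55.7% ± 1.29 in CCR7-PDPN and 51.1% ± 1.44 in X2-PDPN.

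**Figure D3:**
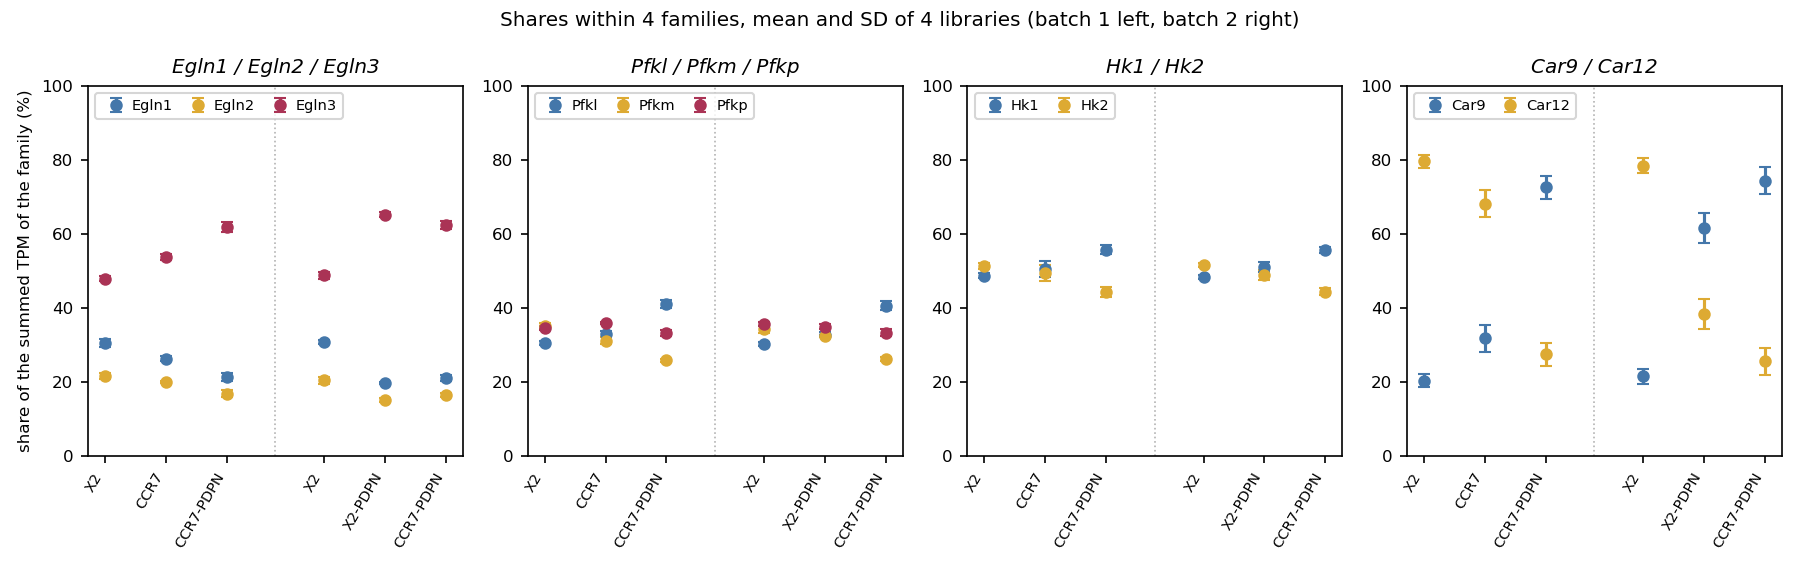
Share of each gene in the summed TPM of its family in percent, mean and SD of 4 libraries, for the Egln hydroxylases, the phosphofructokinase subunits, the hexokinases and the carbonic anhydrases Car9 and Car12. The shares of Egln3, Pfkl, Hk1 and Car9 were higher in CCR7-PDPN than in X2 in both batches, and Car9 passed Car12 in both PDPN-sorted populations.

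Aldoc (ENSMUSG00000017390, chromosome 11, 78322968 to 78327781), the brain form of aldolase, was near the detection limit and was highest in CCR7-PDPN. It had 1, 1, 7 and 2 counts in the X2 libraries, 10, 4, 5 and 5 in CCR7 and 29, 37, 33 and 26 in CCR7-PDPN of batch 1. The batch 2 counts were 0, 2, 3 and 3 in X2, 11, 15, 7 and 7 in X2-PDPN and 20, 34, 35 and 28 in CCR7-PDPN. CCR7-PDPN was highest in both batches without overlap, and X2 and CCR7 overlapped. Aldoc passed the filter on low counts only through its CCR7-PDPN libraries and so had to differ in the comparisons with them, and its fitted differences there are not given. Scaled by library totals, the summed counts of CCR7-PDPN were 10.5 times those of X2 in batch 1 (95% exact interval 5.66 to 21.5) and 14.8 times in batch 2 (7.28 to 35.2), and those of X2-PDPN 4.68 times (2.16 to 11.6). The intervals cover counting error only. The widely expressed form Aldoa was at least 99.9% of the aldolase level in each group, with 1304 ± 19.3 TPM in X2 and 1611 ± 39.8 in CCR7-PDPN of batch 1 (0.33 ± 0.03 SE, adjusted p = 3.2e-09) and -0.02 in X2-PDPN (adjusted p = 0.59).

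Tpi1 and Gapdh, the enzymes on either side of glyceraldehyde phosphate, followed different patterns. Tpi1 had 1004, 962, 1006 and 946 TPM in X2, 1067, 936, 881 and 898 in CCR7 and 1255, 1347, 1248 and 1302 in CCR7-PDPN of batch 1, where only CCR7-PDPN stood apart (0.47 ± 0.05 SE, adjusted p = 8.9e-06 against CCR7). In batch 2 the ranges were 934 to 994 TPM in X2, 1017 to 1071 in X2-PDPN and 1221 to 1338 in CCR7-PDPN, all apart, with 0.14 ± 0.03 (SE, adjusted p = 7.3e-05) for X2-PDPN against X2. Gapdh (ENSMUSG00000057666, chromosome 6, 125161715 to 125166467), widely used as a reference transcript, had 1995, 1937, 1916 and 1935 TPM in X2, 1563, 1523, 1531 and 1563 in CCR7 and 1921, 2025, 1906 and 1934 in CCR7-PDPN. In batch 2 the Gapdh values were 1975, 1909, 1935 and 1925 TPM in X2, 1639.5, 1639, 1627 and 1698 in X2-PDPN and 1975, 1985, 1868 and 1876 in CCR7-PDPN. CCR7 and X2-PDPN were low without overlap, and X2 and CCR7-PDPN overlapped in both batches. The differences were -0.34 ± 0.03 (SE, adjusted p = 6.6e-10) for CCR7 against X2 and -0.24 ± 0.03 (SE, adjusted p = 1.6e-10) for X2-PDPN against X2. They were 0.36 ± 0.03 (SE, adjusted p = 8.5e-10) for CCR7-PDPN against CCR7, and 0.02 ± 0.03 and 0.01 ± 0.03 for CCR7-PDPN against X2 (adjusted p = 0.44 and 0.68).

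Eno2 (ENSMUSG00000004267, chromosome 6, 124760053 to 124769673), the neuronal enolase, was the enzyme that fell most among the members. It had 12.5, 15.6, 15.1 and 14.2 TPM in X2, 7.70, 5.16, 7.08 and 6.32 in CCR7 and 5.43, 5.53, 6.35 and 6.09 in CCR7-PDPN of batch 1. The batch 2 levels were 13.1, 18.3, 16.2 and 14.6 TPM in X2, 10.6, 12.1, 13.1 and 9.56 in X2-PDPN and 6.08, 4.87, 7.04 and 5.35 in CCR7-PDPN. The 2 populations with Ccr7 lay below X2 without overlap and overlapped each other, and X2-PDPN lay between X2 and CCR7-PDPN, its highest library and the lowest X2 library both at 13.1 TPM. The log2 fold change against X2 was -1.12 ± 0.10 (SE, adjusted p = 1.4e-08) in CCR7. It was -1.27 ± 0.10 (SE, adjusted p = 1.6e-09) and -1.39 ± 0.14 (SE, adjusted p = 4.8e-06) in CCR7-PDPN of batches 1 and 2, and -0.45 ± 0.13 (SE, adjusted p = 0.0095) in X2-PDPN. The main enolase Eno1 passed the test in no comparison, at group means of 630.4 to 653 TPM, and Eno2 went from 2.17% ± 0.227 of the level of both in X2 to 0.911% ± 0.0970 in CCR7-PDPN.

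Of the lower steps, Ldha, which turns pyruvate into lactate, rose in CCR7-PDPN against X2 by 0.32 ± 0.05 (SE, adjusted p = 3.1e-05) and 0.36 ± 0.03 (SE, adjusted p = 6.7e-16) in batches 1 and 2 and was 0.00 in X2-PDPN (adjusted p = 0.92). In CCR7 it was 0.17 ± 0.05 (SE, adjusted p = 0.0075) above X2, and 0.11 (adjusted p = 0.0017) without CCR7 replicate 1, whose level of 1797 TPM lay above the 1517 to 1601 of the others. Ldhb, which favours the reverse reaction, had 0, 3, 2 and 0 counts in X2 and 0 in each CCR7 and CCR7-PDPN library, where a count of 0 allows up to 3 counts. Pkm, pyruvate kinase, rose by 0.28 ± 0.03 (SE, adjusted p = 4.4e-08) and 0.26 ± 0.02 (SE, adjusted p = 8e-13) in CCR7-PDPN and by 0.16 ± 0.02 (SE, adjusted p = 3.7e-07) in X2-PDPN against X2. Pgam1, the mutase before enolase, rose by 0.26 ± 0.04 (SE, adjusted p = 3.1e-05) and 0.34 ± 0.04 (SE, adjusted p = 2.4e-11) in CCR7-PDPN. Gpi1, the hexose phosphate isomerase, was higher in CCR7-PDPN than in CCR7 by 0.23 ± 0.03 (SE, adjusted p = 1e-05). Pgk1, which makes the first ATP of the pathway, had group means of 574 to 593 TPM. Pdk1, the kinase that closes the entry of pyruvate to the mitochondrial cycle, was 88.0 to 89.5 TPM in X2-PDPN against 70.5 to 72.2 in X2 (0.31 ± 0.03 SE, adjusted p = 4.6e-13) and 66.7 to 72.2 in CCR7-PDPN.

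Of the other HIF targets, Car9 and Car12 were the members past the fold limit. Car9 (ENSMUSG00000028463, chromosome 4, 43506966 to 43513729), a membrane carbonic anhydrase used as a marker of hypoxia, had 3.51, 3.32, 2.79 and 2.77 TPM in X2, 5.28, 5.41, 4.85 and 4.52 in CCR7 and 8.80, 7.83, 7.82 and 9.17 in CCR7-PDPN of batch 1. In batch 2 Car9 stood at 3.46, 2.76, 3.41 and 3.73 TPM in X2, 12.1, 15.8, 15.2 and 16 in X2-PDPN and 8.25, 10.1, 10.2 and 8.01 in CCR7-PDPN. The groups were apart within each batch, with X2 lowest and X2-PDPN highest. The log2 fold change was 0.70 ± 0.13 (SE, adjusted p = 8.4e-05) for CCR7 and 1.47 ± 0.12 (SE, adjusted p = 4.8e-10) for CCR7-PDPN against X2 in batch 1. It was 1.48 ± 0.12 (SE, adjusted p = 5.1e-14) for CCR7-PDPN and 2.14 ± 0.11 (SE, adjusted p = 3.2e-20) for X2-PDPN in batch 2, the last a 4.40-fold rise.

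Car12 (ENSMUSG00000032373, chromosome 9, 66713686 to 66766845), a related membrane enzyme, moved the other way. It had 12.4, 12.1, 11.8 and 12.1 TPM in X2, 9.70, 10.3, 11.4 and 11.8 in CCR7 and 3.08, 3.22, 3.49 and 2.86 in CCR7-PDPN of batch 1. In batch 2 Car12 had 12.3, 12.1, 11.7 and 12.4 TPM in X2, 9.53, 8.43, 9.63 and 9.04 in X2-PDPN and 3.17, 3.03, 2.86 and 3.37 in CCR7-PDPN of batch 2. CCR7-PDPN was far below all other groups, at -1.91 ± 0.07 (SE, adjusted p = 8.3e-16) against X2 in batch 1 and -1.95 ± 0.06 (SE, adjusted p = 1.8e-28) in batch 2. It was at -1.74 ± 0.07 (SE, adjusted p = 7.3e-14) against CCR7 and -1.54 ± 0.07 (SE, adjusted p = 5.5e-24) against X2-PDPN. In X2-PDPN the log2 fold change was -0.41 ± 0.05 (SE, adjusted p = 7.5e-09). The difference of -0.17 for CCR7 against X2 lost its call without CCR7 replicate 1 or 2 or X2 replicate 1 (-0.16 to -0.12, adjusted p up to 0.064). Of the summed level of both genes, Car9 made up 20.3% ± 1.73 in X2, 31.8% ± 3.61 in CCR7 and 72.6% ± 3.16 in CCR7-PDPN, all of batch 1, against 61.6% ± 4.07 in X2-PDPN.

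Ndrg1 and Ero1l, further targets, were both lowest in CCR7-PDPN, and Ero1l was also lower in CCR7 than in X2. Ndrg1 (ENSMUSG00000005125, chromosome 15, 66929318 to 66969640), a stress-responsive differentiation gene, had 77.3, 74.7, 73.3 and 78.5 TPM in X2, 63.7, 71.2, 81.2 and 79.3 in CCR7 and 49.6, 52.0, 50.5 and 51.6 in CCR7-PDPN of batch 1. In batch 2 Ndrg1 had 72.2, 72.7, 71.5 and 79.5 TPM in X2, 67.2, 64.8, 66.3 and 64.1 in X2-PDPN and 51.3, 48.6, 51.7 and 51.5 in CCR7-PDPN of batch 2. CCR7-PDPN was lowest without overlap, -0.51 ± 0.06 (SE, adjusted p = 6.2e-06) against CCR7 and -0.34 ± 0.03 (SE, adjusted p = 2.4e-12) against X2-PDPN, while X2 and CCR7 overlapped. Ero1l (ENSMUSG00000021831, chromosome 14, 45283087 to 45318771), which oxidises disulfides in the endoplasmic reticulum, had 122, 127, 119.6 and 125 TPM in X2, 86.8, 104, 108 and 105 in CCR7 and 74.3, 68.1, 69.4 and 68.6 in CCR7-PDPN of batch 1. Its batch 2 levels were 125, 124, 129 and 126 TPM in X2, 112, 99.8, 112 and 105 in X2-PDPN and 68.7, 69.7, 71.2 and 72.7 in CCR7-PDPN. CCR7-PDPN lay below X2 with log2 fold changes of -0.79 ± 0.05 (SE, adjusted p = 3.9e-10) and -0.81 ± 0.03 (SE, adjusted p = 2.4e-26) in batches 1 and 2, and the groups of a batch did not overlap.

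Ddit4 (ENSMUSG00000020108, chromosome 10, 59949669 to 59951834), an inhibitor of mTOR signalling that rises under stress, had 214, 233, 222 and 236 TPM in X2, 277, 328, 329 and 304 in CCR7 and 333, 310.2, 324 and 317 in CCR7-PDPN of batch 1. In batch 2 Ddit4 had 218, 223, 216 and 241 TPM in X2, 311, 295, 307 and 307 in X2-PDPN and 329.9, 305, 317 and 339 in CCR7-PDPN of batch 2. All 3 modified populations lay above X2, CCR7 by 0.45 ± 0.05 (SE, adjusted p = 7.6e-08) and X2-PDPN by 0.44 ± 0.04 (SE, adjusted p = 9.9e-13). CCR7-PDPN did so by 0.53 ± 0.05 (SE, adjusted p = 4.2e-09) and 0.54 ± 0.04 (SE, adjusted p = 1.7e-15). Bnip3, which marks mitochondria for removal, rose in CCR7 by 0.38 ± 0.05 (SE, adjusted p = 1.3e-06) and in CCR7-PDPN by 0.33 ± 0.05 (SE, adjusted p = 5.8e-06) in batch 1 and 0.31 ± 0.05 (SE, adjusted p = 2.1e-07) in batch 2 against X2. Kdm3a, a histone demethylase, rose in CCR7-PDPN by 0.24 ± 0.03 (SE, adjusted p = 9.7e-07) and 0.31 ± 0.03 (SE, adjusted p = 2.2e-11) and was lower in X2-PDPN (-0.17 ± 0.03 SE, adjusted p = 2.1e-05).

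P4ha2, a catalytic subunit of the collagen prolyl hydroxylase, had 27.8 to 29.1 TPM in X2-PDPN against 19.8 to 21.8 in X2 (0.45 ± 0.04 SE, adjusted p = 1.7e-12), and its sister subunit P4ha1 rose by 0.21 ± 0.03 (SE, adjusted p = 4.3e-09). In CCR7-PDPN against X2, P4ha2 was -0.03 and 0.01 in batches 1 and 2 (adjusted p = 0.64 and 0.86). Adm, the vasodilator peptide adrenomedullin, had 69.6, 70.0, 68.0 and 67.0 TPM in X2, 64.7, 59.6, 62.0 and 59.0 in CCR7 and 68.9, 64.8, 69.2 and 69.7 in CCR7-PDPN of batch 1. In batch 2 it had 73.1, 69.6, 71.7 and 73.8 TPM in X2, 57.1, 56.1, 51.8 and 58.8 in X2-PDPN and 66.4, 67.9, 68.0 and 69.0 in CCR7-PDPN. Adm was lower than in X2 both in CCR7 (-0.16 ± 0.05 SE, adjusted p = 0.0055) and in X2-PDPN (-0.37 ± 0.05 SE, adjusted p = 4.2e-09), and CCR7-PDPN did not pass the test against X2. Mxi1, an antagonist of MYC, had a log2 fold change of -0.28 ± 0.04 (SE, adjusted p = 4e-09) for CCR7-PDPN against X2-PDPN. Ankrd37, an ankyrin repeat protein of low level here, had 3.48, 4.76, 3.78 and 4.73 TPM in X2, 3.46, 4.18, 4.99 and 3.99 in CCR7 and 2.74, 3.39, 3.73 and 3.29 in CCR7-PDPN of batch 1. In batch 2 Ankrd37 had 5.01, 5.76, 4.63 and 6.06 TPM in X2, 4.89, 4.97, 5.13 and 6.09 in X2-PDPN and 2.32, 2.93, 3.74 and 4.11 in CCR7-PDPN of batch 2. It fell in CCR7-PDPN against X2 in batch 2 (-0.67 ± 0.17 SE, adjusted p = 0.00054) but in batch 1 the difference of -0.32 ± 0.17 did not pass (adjusted p = 0.11). The X2 level itself differed by 0.36 (log2 CPM) between the batches, the largest shift of any member.

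The difference between PDPN-sorted and other cells was compared with and without Ccr7, as the log2 fold change of CCR7-PDPN against CCR7 in batch 1 minus that of X2-PDPN against X2 in batch 2. Since CCR7 cells are in batch 1 only and X2-PDPN cells in batch 2 only, batch and this difference cannot be told apart fully, while X2 and CCR7-PDPN members shifted between batches by -0.19 to 0.36 and -0.09 to 0.12. Of 40 members, 11 had a higher and 14 a lower difference with Ccr7 at an adjusted p under 0.05 (27.5% and 35%), against 20.3% and 20.5% of 13690 genes. Of these, 4 had an absolute value above 0.5. The rise of Car9 was smaller with Ccr7 (-1.37 ± 0.17 SE, adjusted p = 1.6e-08) and the fall of Car12 larger (-1.32 ± 0.09 SE, adjusted p = 5.4e-15). Gapdh rose with PDPN in cells with Ccr7 and fell without (0.60 ± 0.04 SE, adjusted p = 9e-16), as did Adm (0.55 ± 0.06 SE, adjusted p = 6.1e-09). Among the glycolytic enzymes tested 6 were higher and 4 lower, and among other HIF targets 2 were higher and 9 lower. For Pfkl, which rose in both, the difference of 0.02 ± 0.05 did not pass (adjusted p = 0.8), and neither did that of Hif1a (0.06 ± 0.05, adjusted p = 0.37).

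**Figure D4:**
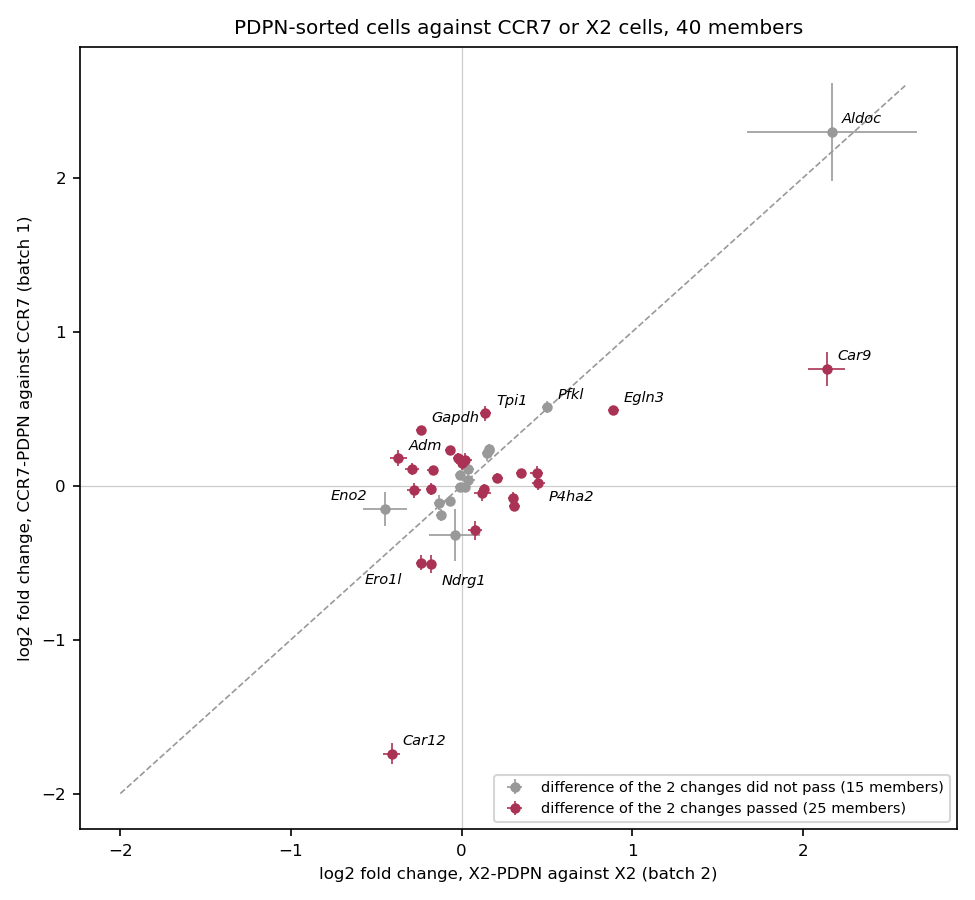
Log2 fold change of the 40 members in X2-PDPN against X2 (batch 2, horizontal) and in CCR7-PDPN against CCR7 (batch 1, vertical), with standard errors and the line of equality dashed. Red points are the 25 members whose 2 changes differed at an adjusted p under 0.05, with Car9 and Car12 farthest from the line, and Pfkl lies near the line.

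Several members lie in chromosome regions whose genes moved together, and the median log2 fold change of the other genes tested within 5 Mb on either side was set beside each member. Around Ero1l on chromosome 14 it was -0.68 over 48 genes in CCR7-PDPN against X2 of batch 1, of which 83.3% were called lower, close to the -0.79 of Ero1l itself. For CCR7 against X2 the neighbours had -0.54, below the -0.29 of Ero1l, so that relative to them Ero1l was higher by 0.25. Egln1 on chromosome 8 stood at -0.11 among 110 neighbours with a median of 0.82. Its neighbours were mixed, 60% called higher and 21.8% lower. The call of Egln1 in this comparison was lost without CCR7-PDPN replicate 1, 3 or 4 or X2 replicate 1, 3 or 4 (-0.11 to -0.08, adjusted p up to 0.14). Car12 on chromosome 9 stood at -1.91 among 67 neighbours with a median of 0.47. Hif1a and Egln3, both on chromosome 12, had neighbours at 0.24 and 0.19, less than their own 0.73 and 0.78. The medians around Pfkl, Aldoc, Eno2, Car9 and Ddit4 lay between -0.07 and 0.07. Pkm on chromosome 9, at 0.28 and 0.26 in CCR7-PDPN against X2 of batches 1 and 2, had neighbours at 0.23 and 0.21, of which 52.9% and 55.1% were called higher, and relative to them it was higher by 0.05 in each. In X2-PDPN against X2, Pfkm at 0.30 had 137 neighbours with a median of 0.24, of which 67.9% were called higher, a difference to them of 0.06. There, Pkm at 0.16 and Egln1 at -0.18 had neighbours at 0.13 and -0.18. Ndrg1, at -0.34 for CCR7-PDPN against X2-PDPN, had 14 neighbours at -0.27. The part of the surrounding region in any single difference was not tested.

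**Figure D5:**
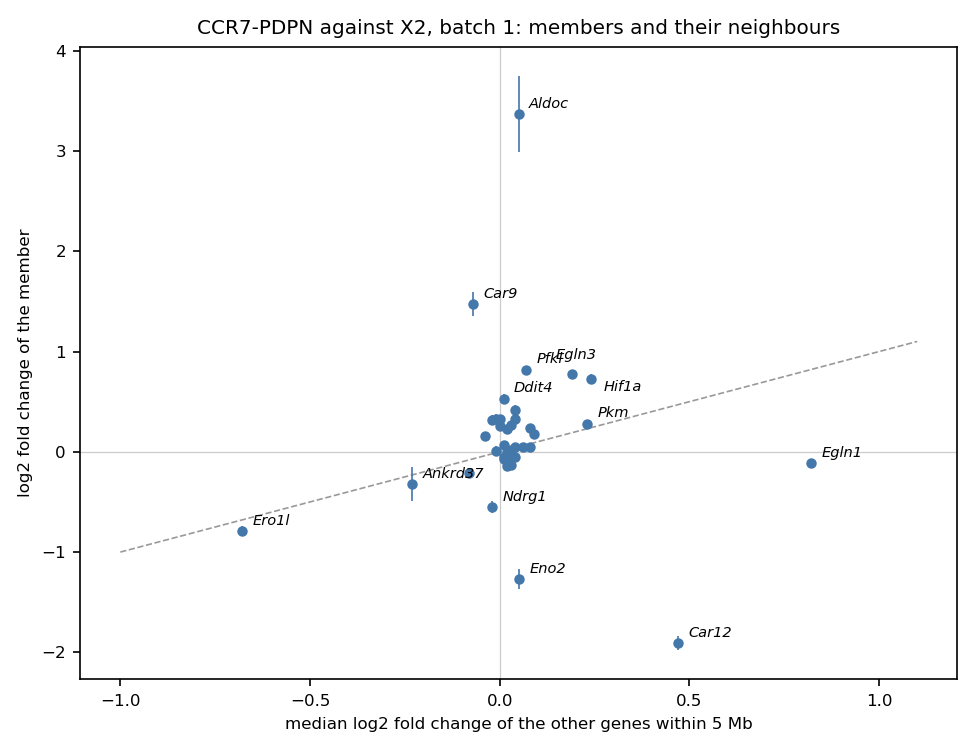
Log2 fold change of each of the 40 members in CCR7-PDPN against X2 of batch 1, with its standard error, against the median of the other genes tested within 5 Mb on either side, the dashed line marking equality. Ero1l lies near the line at -0.79 against -0.68, Egln1 and Car12 lie far below it, and most members have neighbours near 0.

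Further genes of the same pathways were counted in the same way, and a list's count close to the share of all genes is no result about that list. In CCR7-PDPN against X2 of batch 1, where 30.3% of all genes were higher and 30.6% lower, 4 of 9 other HIF pathway components were higher and 3 lower (median 0.09), and 11 of 27 other HIF targets were higher and 11 lower (-0.02). There, 8 of 22 other glycolysis and gluconeogenesis genes were higher and 8 lower (0.04), 2 of 10 pentose phosphate genes were higher and 4 lower (-0.04), and 8 of 25 genes of pyruvate entry and the citrate cycle were higher and 6 lower (0.00). In X2-PDPN against X2 (28.2% and 28.5% of all genes) the HIF targets were 13 higher and 6 lower of 27 (0.09), and the genes of pyruvate entry and the citrate cycle 5 higher and 10 lower of 25 (-0.06). Between CCR7-PDPN and CCR7 (20.9% and 20.7%), 8 of 27 HIF targets were higher and 2 lower (0.09). From X2 to CCR7 cells (24% and 25.2%) 8 of 27 HIF targets rose and 12 fell (-0.09), and 0 of 10 pentose phosphate genes rose while 5 fell (-0.09).

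The largest differences in these lists were in Loxl2, a secreted lysyl oxidase that crosslinks collagen. It had 936 to 1259 counts (25.5 to 27.7 TPM) in X2 of either batch and 1190 to 1619 counts in X2-PDPN, but 1 to 4 counts in CCR7, 2 to 5 in CCR7-PDPN of batch 1 and 2 to 6 in CCR7-PDPN of batch 2. Summed over libraries and scaled, X2 had 570.4 times the counts of CCR7 (95% exact interval 289 to 1322), and the 54 genes tested within 5 Mb of it had a median of -0.44. In batch 1 Loxl2 passed the filter on low counts through X2 alone. Eno3, the muscle enolase, fell from 98.7 to 109 TPM in X2 to 35.5 to 45.3 in CCR7 (-1.40 ± 0.06, adjusted p = 4.3e-14) and lay above Eno2 in every group. Ldhd, a mitochondrial lactate dehydrogenase for the D form, went from 1 to 2 counts per library in X2 to 13 to 19 in CCR7, 8.82 times as many in sum (4.04 to 22.8), among 61 neighbours with a median of 1.07. It passed the filter on low counts of batch 1 only through CCR7 and CCR7-PDPN libraries and so had to differ from X2. The interval covers counting error only. Slc2a4, the insulin-responsive glucose carrier, rose in X2-PDPN from 1.07 to 1.48 TPM in X2 to 2.97 to 4.18 (1.55 ± 0.16, adjusted p = 2.6e-11). Hkdc1, a hexokinase-like gene, had 11 to 19 counts in X2 of batch 2, 2 to 4 in X2-PDPN and 6 to 9 in CCR7-PDPN. It passed the filter on low counts there only through X2 and so had to differ from it. The fitted difference of Hkdc1 is not given.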

How the data were processed

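Total RNA of 24 libraries from 4 derivatives of EO771, 4 technical replicates per derivative and batch, had been made into stranded mRNA libraries by the authors and mapped to GRCm38/mm10, per the labels. The deposited values are raw counts per Ensembl gene, in a table laid out as by featureCounts for batch 1 and a table of 13915 genes for batch 2. The aligner, the filter behind batch 2, the strand setting and the treatment of reads with several matches were not given in the sources used here.

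Groups came from the sample titles. Comparisons were fitted within a batch on all its 12 libraries with edgeR 4.0.16 in R 4.3.3 (TMM factors, filterByExpr, robust quasi-likelihood test), with Benjamini-Hochberg adjustment over all 13261 genes tested in batch 1 and 13314 in batch 2, and the difference between PDPN differences over all 24 libraries. The study's own test per pair of groups was replaced by this test, and DESeq2 1.42.0 served as an alternative. The deposited counts were turned into TPM here with the exonic lengths of batch 1. The scripts, which used Python 3.11.15, pandas 2.3.3 and limma 3.58.1, were tested on simulated data. Libraries of 22275468 to 35721027 counts gave few reads for Aldoc, Epas1, Ldhb, Ankrd37 and Car9, whose values are the least precise.

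The members and gene lists were chosen with earlier results of these data known. All members are named by role, with values per library where an absolute log2 fold change above 0.5 passed the test or the gene controls HIF. Genes of the other lists are named where they were past the fold limit of 1, at most 3 per list and comparison, and some of these are not reported here. Alternatives were other scaling factors, filters, fits, a replicate block, subtraction of the median of genes within 5 Mb, and leaving out each library.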

Additional observations from a re-analysis of the deposited data

Results flagged for a closer look

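Within groups of 4 libraries, 14 of 240 sets of member levels had 1 library apart from the other 3 by Dixon's criterion, where chance gives about 1 in 20. Of these, 4 were in CCR7 replicate 1, at 28.7 TPM for Slc2a3, 121 for Hk1, 97.3 for Pfkp and 1261 for Pkm. In CCR7-PDPN of batch 1 they were Arnt in replicate 4 with 52.0 TPM, Pfkl in replicate 2 with 127 TPM and Pdk1 in replicate 4 with 67.2 TPM, and in CCR7-PDPN of batch 2 Pdk1 in replicate 4 with 72.2 TPM. In X2 they were Slc16a3 with 227 TPM and Mxi1 with 54.3 TPM, both in replicate 1 of batch 1, and Arnt with 61.8 TPM in replicate 3 of batch 2. In X2-PDPN they were Slc2a3 with 23.8 TPM in replicate 2, Tpi1 with 1017 TPM in replicate 3 and Ankrd37 with 6.09 TPM in replicate 4.

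The difference of PDPN-sorted to other cells differed with and without Ccr7 by more than 0.5 on the log2 scale in 4 members at an adjusted p under 0.05 (edgeR). It was 0.60 for Gapdh and 0.55 for Adm, both higher in cells with Ccr7, and -1.37 for Car9 and -1.32 for Car12, both lower.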

How the results depend on the processing

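Of 4096 alternative values for the 187 called member differences, 3905 were counted as unchanged. That means the same direction and side of the threshold or, for the 65 from the subtraction below, a value within 1 standard error. Another 94 were no longer past the threshold, in 17 differences whose size had been 0.07 to 0.17. Of 1975 alternative values for member differences not called, 65 were called and 99 changed sign. Subtracting the median of the genes within 5 Mb, an alternative with no test, left 65 of 162 values within 1 standard error of the reported fold change, moved 90 further with the direction kept and turned 7 around: Kdm3a in CCR7-PDPN against CCR7 (-0.01), Pdk1 (-0.02) and Ero1l (0.25) in CCR7 against X2, Egln1 in X2-PDPN against X2 (0.00), and Arnt (0.06), Vhl (-0.01) and Ero1l (0.05) in CCR7-PDPN against X2-PDPN. The same subtraction changed the median over the members to 0.02 in CCR7-PDPN against CCR7, 0.02 and 0.04 in CCR7-PDPN against X2 of batches 1 and 2, and 0.05 in CCR7-PDPN against X2-PDPN. That median was 0.04 under DESeq2 in CCR7-PDPN against CCR7, 0.05 under upper-quartile factors in CCR7-PDPN against X2-PDPN, and 0.04 for the difference of PDPN differences taken from the other X2 and CCR7-PDPN libraries. The causes were not tested. Members past the fold limit numbered 2 in CCR7 against X2 with all 24 libraries and a batch term, 1 in X2-PDPN against X2 with only the groups compared in the fit, and 1 each in X2-PDPN against X2, CCR7-PDPN against CCR7, and CCR7-PDPN against X2-PDPN when at least 50 counts were required, which left Aldoc untested.

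With single libraries left out, members higher and lower ranged from 15 to 19 and 6 to 8 in CCR7-PDPN against CCR7, 12 to 16 and 5 to 8 in CCR7 against X2, 18 to 19 and 6 to 9 in CCR7-PDPN against X2 of batch 1, 15 to 16 and 12 to 14 in X2-PDPN against X2, 19 to 21 and 10 to 11 in CCR7-PDPN against X2 of batch 2, 19 to 19 and 14 to 15 in CCR7-PDPN against X2-PDPN, and 8 to 12 and 13 to 15 for the difference of PDPN differences. The medians ranged in this order from 0.04 to 0.07, 0.03 to 0.05, 0.04 to 0.07, 0.00 to 0.03, 0.06 to 0.07, 0.06 to 0.08 and -0.02 to 0.02. The shares of all genes called in these fits were not counted, so the ranges show only how the counts depend on single libraries. The median of X2-PDPN against X2 was 0.00 without X2-PDPN replicate 4 or X2 replicate 3, and that of the difference of PDPN differences was below 0 without CCR7-PDPN replicate 2 (-0.02), CCR7 replicate 3 (-0.01) or X2 replicate 4 (-0.01). Members past the fold limit ranged from 1 to 2 in CCR7 against X2, with 2 without X2 replicate 3, and from 2 to 3 in CCR7-PDPN against X2-PDPN. Replicate numbers did not pair the libraries, since deviations of libraries with the same number correlated at -0.12 to 0.05 in batch 1 and -0.04 to 0.11 in batch 2. A replicate block left all 187 calls past the threshold and gave 17 members higher and 7 lower in CCR7-PDPN against CCR7. Depth limits Aldoc, with 0 to 37 counts per library, Ankrd37 and Car9, whose standard errors were wide, and Epas1 and Ldhb, which could not be tested.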
